A study of Homo sapiens with 4 samples.

Results

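The tubulin genes described here are 10 protein-coding genes of the deposited table, chosen by name: the alpha-tubulin genes TUBA1A, TUBA1B, TUBA1C and TUBA4A and the beta-tubulin genes TUBB, TUBB2A, TUBB2B, TUBB3, TUBB4B and TUBB6. They are 10 of 27694 genes, and all 10 were among the 11516 genes tested, which had a mean of at least 1 FPKM (fragments mapped to a gene, corrected for the length of its transcript and for library depth). The cells were LN229, an established human glioblastoma cell line grown with 5% fetal bovine serum. They received 100 nM UM-164, an inhibitor of the kinases c-Src and p38, or vehicle (DMSO) for 24 h, and total RNA was sequenced from 2 libraries of each group. Nothing in the sources says that libraries sharing a group were separate cultures. The p-values given here therefore rest on differences among the 4 libraries only, and those differences may be technical.

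Alpha- and beta-tubulin form the heterodimer that polymerises into microtubules, the tracks of intracellular transport and the fibres of the mitotic spindle. Each class is encoded by several genes, called isotypes, whose proteins are nearly identical in the body of the molecule and differ most in the carboxy-terminal tail. Cells also adjust tubulin messages to the amount of free dimer: the ribosome-bound factor TTC5 recognises the start of a nascent tubulin chain and recruits enzymes that degrade the message being translated.

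In vehicle-treated cells TUBA1B and TUBB dominated their classes, and in UM-164-treated cells the summed level was 0.712 of vehicle for the alpha genes and 0.677 for the beta genes. TUBA1A, the alpha isotype best known from developing neurons, rose from 60.2 ± 0.179 to 111.4 ± 4.73 FPKM (mean ± SD, n = 2). TUBA1C fell from 244.7 ± 12 to 146.3 ± 1.44 FPKM (n = 2). The other alpha and beta genes did not pass the test. In 6 of them each UM-164 value was lower than each vehicle value, a pattern shared by 25.5% of all genes tested.

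The start of the coding sequence is shown for each gene because it is the part of the message that bears the tubulin autoregulation signal, in which the first 4 amino acids are read as they leave the ribosome. The capitals mark the first 4 codons. The first 30 coding bases of TUBA1A, TUBA1B and TUBA1C were identical, so 1 line stands for these 3 genes. All come from GENCODE v29 transcripts on GRCh38, written 5′ to 3′ on the coding strand.
TUBA1A: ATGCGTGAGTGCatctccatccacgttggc
TUBA4A: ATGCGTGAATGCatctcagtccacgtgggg
TUBB: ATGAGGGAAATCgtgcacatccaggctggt
TUBB2A: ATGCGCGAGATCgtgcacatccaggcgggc
TUBB2B: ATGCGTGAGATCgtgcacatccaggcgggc
TUBB3: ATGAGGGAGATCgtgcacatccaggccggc
TUBB4B: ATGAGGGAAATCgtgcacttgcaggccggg
TUBB6: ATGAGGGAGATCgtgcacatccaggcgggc
The alpha genes share TGC as the fourth codon and the beta genes share ATC, while the third codon is GAG or GAA in every gene. The genes whose levels moved in opposite directions, TUBA1A and TUBA1C, therefore have the same letters in this stretch.

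In the vehicle libraries the order of mean levels, in FPKM, was TUBA1B, TUBB, TUBB4B, TUBA1C, TUBB2B, TUBB2A, TUBB3, TUBA1A, TUBB6 and TUBA4A. TUBA1B and TUBB, the main isotypes of many dividing cells, had means of 1110 and 1068 FPKM, a difference smaller than the SD of TUBB (50.6, n = 2). By mean FPKM in vehicle, TUBA1B ranked 22 and TUBB ranked 23 among all genes of the table, and they ranked 38 and 41 in UM-164. In the UM-164 libraries the order differed in that TUBA1A moved above TUBB2A and TUBB3, and its range there (108.1 to 114.8 FPKM) overlapped that of TUBB2B (111.4 to 120.4). Likewise the ranges of TUBA1B and TUBB overlapped with UM-164, and TUBB2A lay less than 1 SD of TUBB3 above it. Of 8 other alpha- and beta-tubulin genes looked for, 2 were not analysed here, and the other 6, TUBA3C, TUBA3D, TUBA3E, TUBA8, TUBB1 and TUBB4A, had a mean under 1 FPKM.

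**Figure D1:**
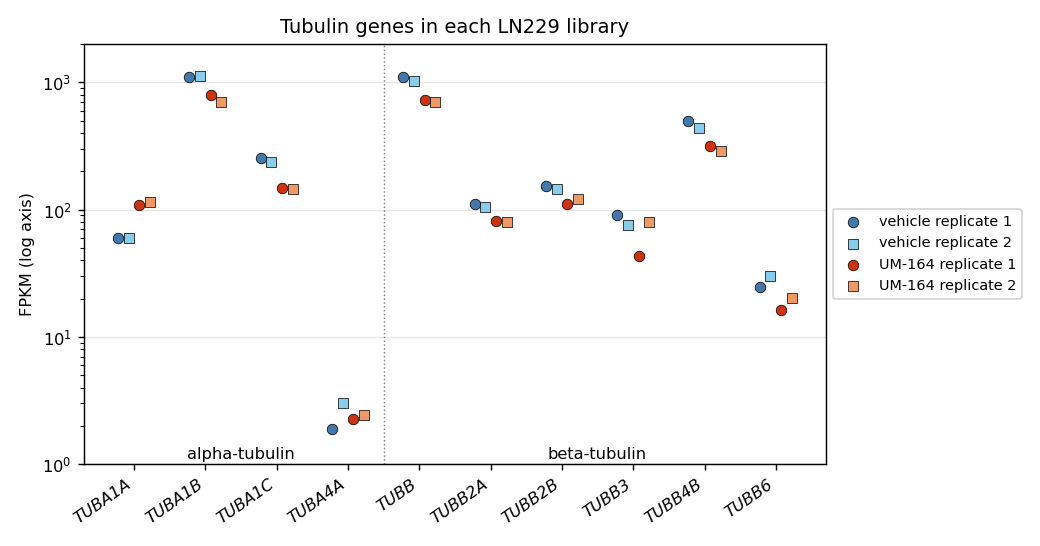
Deposited FPKM of the 10 tubulin genes (log axis), 1 point per library. TUBA1A is the only gene with both UM-164 libraries above both vehicle libraries (108.1 and 114.8 against 60.1 and 60.3), and the groups overlap for TUBA4A and TUBB3.

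Among the alpha-tubulin genes, TUBA1A was at 60.1 and 60.3 FPKM in the vehicle libraries and at 108.1 and 114.8 FPKM in the UM-164 libraries. Both UM-164 libraries were thus well above both vehicle libraries, and the vehicle libraries were nearly equal. The log2 fold change of UM-164 against vehicle was 0.88 (SE 0.08, 95% interval 0.68 to 1.09), with a limma adjusted p of 0.0241 after Benjamini-Hochberg adjustment over all genes tested. Fold changes here are differences of log2(FPKM + 0.5), a scale that understates changes of weakly expressed genes. The call rested on few libraries: the limma adjusted p was 0.103 without vehicle replicate 1, 0.111 without vehicle replicate 2 and 0.0758 without UM-164 replicate 2, although the log2 fold change stayed between 0.84 and 0.93. It was also 0.153 with no filter on low values and 0.0731 with no variance trend.

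TUBA1C, a broadly expressed alpha isotype, was at 253.2 and 236.2 FPKM in vehicle and at 147.4 and 145.3 FPKM in UM-164. Each UM-164 library lay far below each vehicle library. The log2 fold change was -0.74 (SE 0.08, 95% interval -0.95 to -0.53; limma adjusted p 0.0337). Leaving out any 1 of the 4 libraries ended this call, with limma adjusted p-values of 0.110 and 0.111 without vehicle replicates 1 and 2 and of 0.0932 and 0.124 without UM-164 replicates 1 and 2. It was 0.183 with no filter on low values, 0.0523 with median-ratio scaling and 0.0892 with no variance trend.

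TUBA1B, the most abundant alpha isotype, was at 1109.6 and 1111 FPKM in vehicle and at 801.1 and 698.5 FPKM in UM-164. The groups did not overlap, but the UM-164 libraries differed from each other far more than the vehicle libraries did. Its log2 fold change of -0.57 (SE 0.1, 95% interval -0.82 to -0.31) had a limma adjusted p of 0.0731. TUBA4A, an alpha isotype prominent in adult nerve and muscle, was at 1.89 and 3.05 FPKM in vehicle and at 2.28 and 2.44 FPKM in UM-164. Its UM-164 values lay between the vehicle values, and the log2 fold change was -0.03 (95% interval -0.60 to 0.55; limma adjusted p 0.959).

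Among the beta-tubulin genes, TUBB, the most abundant, was at 1104 and 1033 FPKM in vehicle and at 720.7 and 695.4 FPKM in UM-164. Both UM-164 libraries were below both vehicle libraries. The log2 fold change was -0.59 (SE 0.09, 95% interval -0.81 to -0.38), and the limma adjusted p of 0.0539 missed the threshold. TUBB4B, the second beta isotype by level and a component of ciliary and general microtubules, was at 493.7 and 433.8 FPKM in vehicle and at 313.1 and 290.5 FPKM in UM-164. Again the groups were apart, and the log2 fold change of -0.62 (SE 0.1) had a limma adjusted p of 0.0658.

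TUBB2A and TUBB2B are neighbouring genes whose proteins are abundant in the nervous system. TUBB2A was at 111.7 and 104.1 FPKM in vehicle and at 80.7 and 80.4 FPKM in UM-164, and TUBB2B was at 153.7 and 144.1 against 111.4 and 120.4 FPKM. For both genes the 2 groups were apart by more than the gap between libraries of a group. Their log2 fold changes were -0.42 (SE 0.08, limma adjusted p 0.0848) and -0.36 (SE 0.09, limma adjusted p 0.123).

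TUBB3, the isotype used as a neuronal marker, was at 90.7 and 75.4 FPKM in vehicle and at 43.3 and 79.8 FPKM in UM-164. UM-164 replicate 2 lay within the vehicle range and UM-164 replicate 1 far below it, so the groups overlapped. The log2 fold change of -0.49 (SE 0.3, 95% interval -1.25 to 0.27; limma adjusted p 0.418) moved to -0.05 without UM-164 replicate 1 and to -0.93 without UM-164 replicate 2. TUBB6, a minor and widely expressed beta isotype, was at 24.8 and 29.9 FPKM in vehicle and at 16.2 and 20.1 FPKM in UM-164. All 4 values kept the groups apart, with a log2 fold change of -0.58 (SE 0.15, limma adjusted p 0.141).

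**Figure D2:**
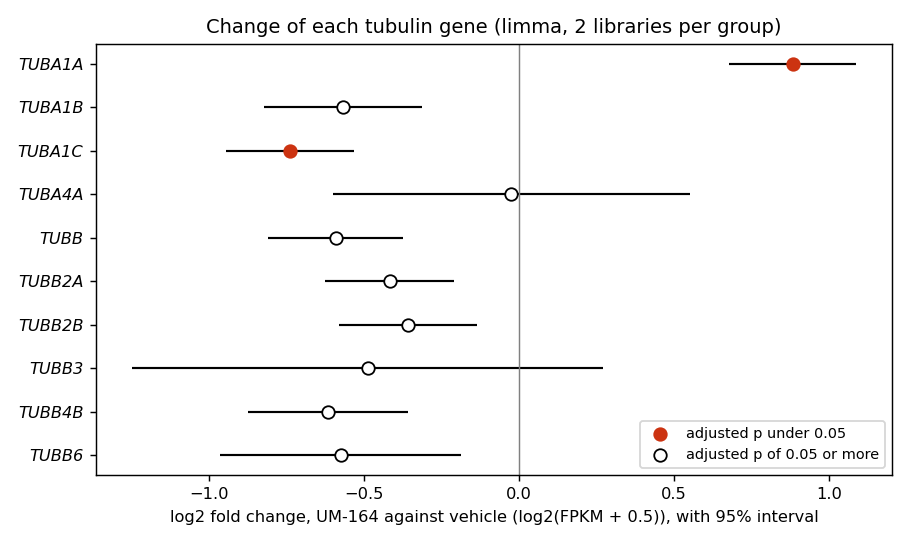
Log2 fold change of each tubulin gene, UM-164 against vehicle on log2(FPKM + 0.5), with its 95% interval from limma; filled points have an adjusted p under 0.05. TUBA1A (0.88) and TUBA1C (-0.74) passed the threshold, and the 6 beta genes lay between -0.62 and -0.36.

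In all, 1 of the 10 tubulin genes was lower and 1 was higher at an adjusted p under 0.05, against 0.86% of all genes tested called lower and 0.452% called higher. None had a log2 fold change of 1 or more in size, the 2-fold threshold. At an unadjusted p under 0.05 the counts were 7 lower and 1 higher, against 10.6% and 9.47% of all genes tested. Both UM-164 libraries were below both vehicle libraries for 7 of the 10 genes, against 25.5% of all genes tested, and above them for 1 gene, against 27.7%. The median log2 fold change was -0.53 over the 10 genes and 0.01 over all genes tested.

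Class sums were compared because near-identical isotypes can exchange reads, and a sum counts such reads wherever they fall in the class. The sums are of FPKM, so a read moved between transcripts of unlike length still changes them. Reads placed on genes outside the class are lost from them. Each sum also holds the other genes of its class that had a mean under 1 FPKM. The summed alpha-tubulin level was 1425 and 1411 FPKM in vehicle and 1059 and 961.1 FPKM in UM-164, a ratio of means of 0.712. The summed beta-tubulin level was 1979 and 1820 FPKM in vehicle and 1285 and 1287 FPKM in UM-164, a ratio of 0.677. Both sums were lower in both UM-164 libraries, each with a two-sided exact permutation p of 0.33, the smallest that 2 against 2 libraries allow. The alpha sum per beta sum was 0.720 and 0.775 in vehicle and 0.824 and 0.747 in UM-164, with overlapping groups (exact permutation p 0.67). In bulk RNA, fewer cells with high tubulin expression and less tubulin RNA per cell cannot be told apart.

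**Figure D3:**
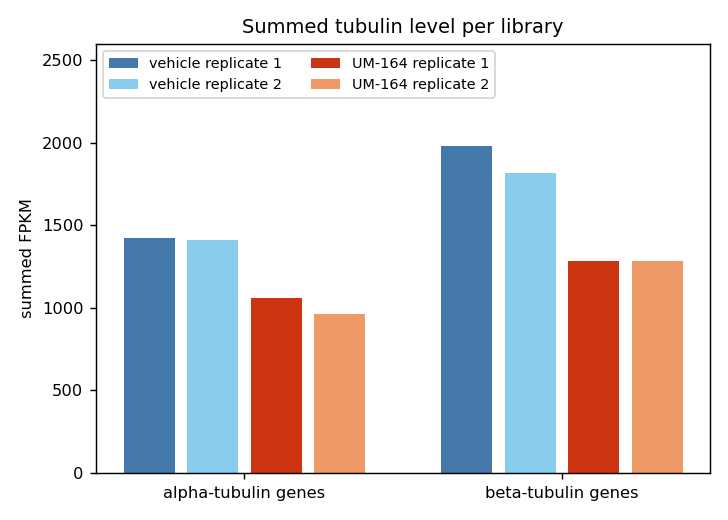
Summed FPKM of the 4 alpha-tubulin genes and of the 6 beta-tubulin genes, each with the other genes of its class under a mean of 1 FPKM added, 1 bar per library. The alpha sum lay at 1411 and 1425 in vehicle and at 961.1 and 1059 in UM-164, and the beta sum at 1820 and 1979 against 1285 and 1287.

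The isotype make-up was described as the share of each gene in the summed FPKM of its class, which does not depend on how a library was scaled. TUBA1A made up 4.21% and 4.27% of alpha-tubulin in vehicle and 10.2% and 11.9% in UM-164. TUBA1B made up 77.9% and 78.8% in vehicle and 75.6% and 72.7% in UM-164, and TUBA1C 17.8% and 16.7% against 13.9% and 15.1%. The alpha class therefore held a larger share of TUBA1A and smaller shares of TUBA1B and TUBA1C in both UM-164 libraries than in both vehicle libraries. TUBA1A per TUBA1B was 0.0541 and 0.0543 in vehicle and 0.135 and 0.164 in UM-164, and TUBA1A per TUBA1C was 0.237 and 0.255 against 0.733 and 0.790.

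The beta class kept its main isotype within a narrow range, with TUBB at 55.8% and 56.7% in vehicle and at 56.1% and 54.0% in UM-164. TUBB4B was at 24.9% and 23.8% against 24.4% and 22.6%, with overlapping groups. TUBB2A had shares of 5.64% and 5.72% in vehicle and 6.28% and 6.25% in UM-164, and TUBB2B had 7.76% and 7.92% against 8.67% and 9.36%. The groups were apart for both. The ratio of TUBB2B to TUBB2A was 1.38 and 1.38 in vehicle and 1.38 and 1.498 in UM-164. TUBB3 had the most variable share, from 3.37% to 6.21% within the UM-164 group.

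**Figure D4:**
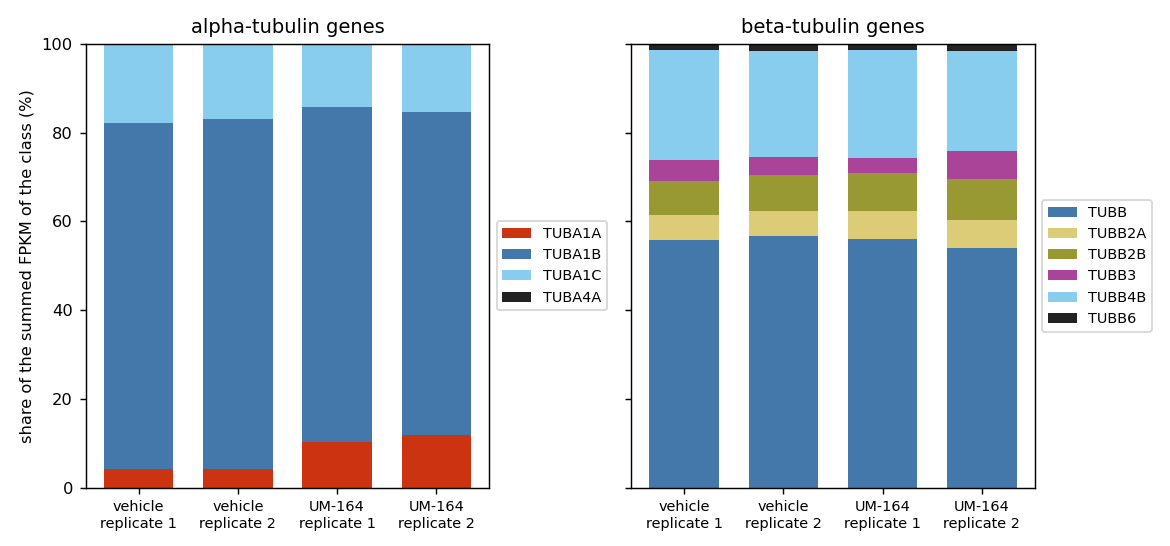
Share of each gene in the summed FPKM of its tubulin class (%), 1 stacked bar per library. TUBA1A takes 4.21% and 4.27% of alpha-tubulin in vehicle and 10.2% and 11.9% in UM-164, while TUBB stays between 54.0% and 56.7% of beta-tubulin.

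The other members are spread over the genome, as GENCODE v29 on GRCh38 gives them. TUBA4A (ENSG00000127824) lies at chr2:219249711-219278170 on the minus strand. TUBB (ENSG00000196230) lies at chr6:30720201-30725426 on the plus strand, away from the neighbours TUBB2A (ENSG00000137267, chr6:3153669-3157526) and TUBB2B (ENSG00000137285, chr6:3224261-3231730) on the minus strand. TUBB3 (ENSG00000258947, chr16:89921392-89938761), TUBB4B (ENSG00000188229, chr9:137241213-137243707) and TUBB6 (ENSG00000176014, chr18:12307669-12344320) are on the plus strand.

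How far single isotypes can be told apart depends on where their sequences differ. TUBA1A (ENSG00000167552, chr12:49184796-49189324, minus strand), TUBA1B (ENSG00000123416, chr12:49127782-49131397, minus strand) and TUBA1C (ENSG00000167553, chr12:49188736-49274603, plus strand) lie side by side, by GENCODE v29 on GRCh38. The coding sequences of TUBA1A and TUBA1B were 97.2% identical and differed at 38 of 1353 bases. Their last 60 coding bases, which encode the carboxy-terminal tail, did not differ at all, and those of TUBB2A and TUBB2B, whose coding sequences were 98.2% identical, differed at 1 base, in capitals here.
TUBB2A: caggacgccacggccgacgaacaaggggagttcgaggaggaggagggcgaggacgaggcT
TUBB2B: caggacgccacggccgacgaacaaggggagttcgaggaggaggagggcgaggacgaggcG
Cut into overlapping windows of 100 bases, 26.6% of the TUBA1A transcript was also found in transcripts of other genes on either strand. The share was 71.1% for TUBA1B, 29.6% for TUBA1C, 27.4% for TUBA4A and 20.4% for TUBB. It was 56.4% for TUBB2A, 46.2% for TUBB2B, 89.0% for TUBB3, 4.49% for TUBB4B and 0 for TUBB6.

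Some of that shared sequence belongs to overlapping genes, and the sources do not state whether strand was used in counting. TUBA1A and TUBA1C overlap at their exons on opposite strands, so reads there cannot be assigned without strand. AC011603, which overlaps TUBA1B on the other strand and shares 65.4% of its windows, was at 61.3 and 61.6 FPKM in vehicle and at 32.3 and 34.1 FPKM in UM-164, and it fell with a log2 fold change of -0.88 (SE 0.08, limma adjusted p 0.0246). That call ended with any 1 library left out (limma adjusted p 0.0621 to 0.113). Its part in the TUBA1B values, and theirs in its own, was not tested. AC125611 and AL662797 overlap TUBA1C and TUBB on the other strand and share 18.6% and 17.1% of their windows. AC125611 was at 0.278 and 6.63 FPKM in vehicle and at 0.663 and 0.0555 FPKM in UM-164. AL662797 was at 1.75 and 1.36 FPKM in vehicle and at 0.329 and 10.6 FPKM in UM-164. Their part in the TUBA1C and TUBB values was not tested. STK16 overlaps TUBA4A on the other strand and shares 25.6% of the TUBA4A windows. It was at 14.9 and 13.8 FPKM in vehicle and at 14.3 and 16.4 FPKM in UM-164, well above TUBA4A. The part of STK16 in the TUBA4A values was not tested. TUBB3 overlaps the MC1R readthrough AC092143 (ENSG00000198211) on the same strand. That entry was listed at 0 in every library except UM-164 replicate 2, at 1.15 FPKM. A second readthrough entry of that name (ENSG00000267048) was at 2.06 and 1.24 FPKM in vehicle and at 1.31 and 0.0015 FPKM in UM-164. Summed over both entries, the readthrough was at 2.06 and 1.24 FPKM in vehicle and at 1.31 and 1.15 FPKM in UM-164, and its part in the TUBB3 values was not tested.

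Pseudogenes, the non-coding copies of tubulin genes, were summed separately, since reads of their parents can be placed on them. The beta-tubulin pseudogenes summed to 21.9 and 20.4 FPKM in vehicle and to 13.9 and 13.02 FPKM in UM-164, and the alpha-tubulin pseudogenes to 9.46 and 7.91 against 6.52 and 6.41 FPKM. Both sums were far below those of the coding genes. TUBBP1, the most abundant, was at 12.6 and 12.2 FPKM in vehicle and at 7.70 and 6.75 FPKM in UM-164, with a log2 fold change of -0.74 (limma adjusted p 0.0588). TUBB2BP1 and TUBAP2 had log2 fold changes of -0.51 and -0.68 (limma adjusted p 0.113 and 0.238), and TUBAP5 and TUBA3FP of -0.09 and -0.05.

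The tubulin genes were then set beside the rest of the microtubule system, 72 tested genes in lists of tubulin partners. Of these 72, 1 was lower and 0 were higher at an adjusted p under 0.05 by limma, against 0.86% and 0.452% of all genes, and 11 were lower and 6 higher at an unadjusted p under 0.05, against 10.6% and 9.47% of all genes. Their median log2 fold change was -0.01, with 38 below 0 and 34 above. Of the 10 tubulin genes 9 were below 0, with TUBA4A among them at -0.03, and the median over all genes tested was 0.01. The tubulin genes and the lists were chosen with earlier results of these data known. Near-identical copies can exchange reads, so the 10 genes are not independent observations.

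None of the 3 tested genes of the other tubulin classes was called, and 1 of them was lower at an unadjusted p under 0.05. TUBG1, the gamma-tubulin that nucleates microtubules, was at 80.9 and 69.4 FPKM in vehicle and at 61.8 and 60.4 FPKM in UM-164, with a log2 fold change of -0.29 (limma adjusted p 0.219). TUBG2 and TUBD1 had log2 fold changes of -0.08 and -0.03. Of 9 genes of gamma-tubulin ring complex partners, none was called. At an unadjusted limma p under 0.05, 1 was lower (MZT1, -0.41) and 1 higher (NEDD1, 0.50), against 10.6% and 9.47% of all genes tested.

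The folding machinery, made up of the chaperonin CCT, prefoldin and the tubulin cofactors that assemble the dimer, had 20 tested genes. None was called by limma, and the median log2 fold change was -0.01. At an unadjusted limma p under 0.05, 3 were lower and 2 higher, against 10.6% and 9.47% of all genes tested. The prefoldin subunit PFDN6 was at -0.39, the CCT subunits CCT5 at -0.29 and CCT4 at -0.22, and the prefoldin subunit PFDN5 at 0.29 on the log2 scale. Among the genes of tubulin mRNA autoregulation, TTC5 had a log2 fold change of 0.11, CNOT1, the scaffold of the deadenylase complex, of -0.05, and CNOT11, a subunit of that complex, of -0.36 (unadjusted p 0.0136). None of these 3 passed the limma threshold after adjustment. Of 12 enzymes that modify tubulin, none was called and 1, the polyglutamylase subunit TTLL1, was higher at an unadjusted p under 0.05 (log2 fold change 0.50).

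Among 11 microtubule-associated proteins and stathmins, TPX2, the spindle assembly factor, was the called gene. It was at 85.3 and 95.6 FPKM in vehicle and at 55.4 and 53.8 FPKM in UM-164, a log2 fold change of -0.72 (SE 0.09, limma adjusted p 0.0451). That call was lost with any 1 library left out. GTSE1, a mitotic microtubule-binding protein, was at -0.62 (limma adjusted p 0.0536) and MAP7D1 at -0.38 on the log2 scale. Of 14 plus-end, depolymerase and severing genes none was called, with MAPRE2 at 0.80 (limma adjusted p 0.0588), the plus-end factor CLIP2 at 0.70, the depolymerase KIF2C at -0.51 and the plus-end factor MAPRE1 at -0.28.

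**Figure D5:**
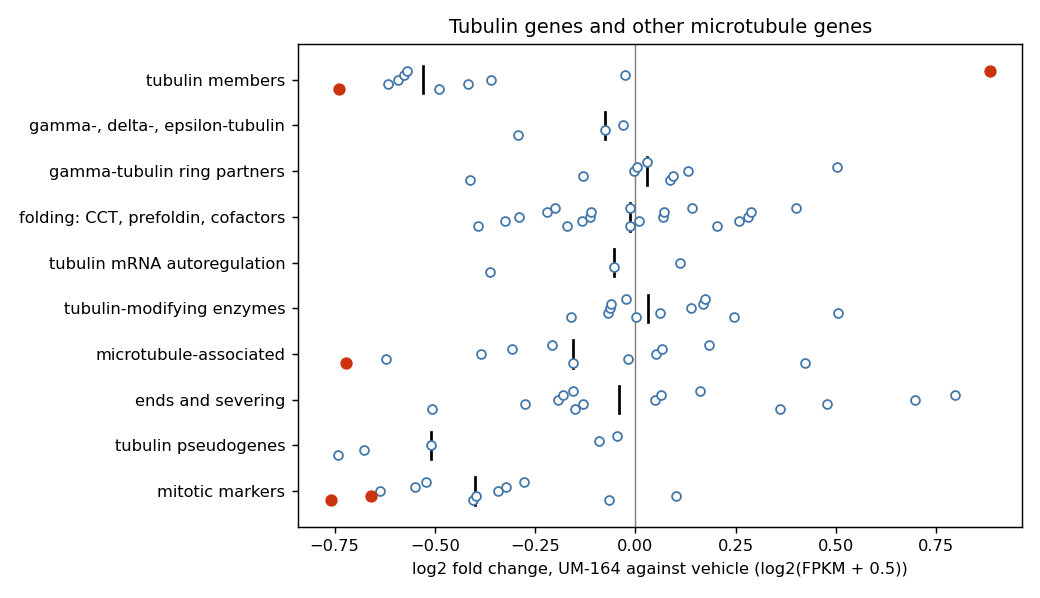
Log2 fold change of each tested gene, UM-164 against vehicle, by list; vertical bars are medians and filled points have a limma adjusted p under 0.05. The tubulin genes have a median of -0.53 and the 20 folding genes a median of -0.01.

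Markers of dividing cells were read in the same libraries. Of 12 mitotic markers tested, 2 were lower at an adjusted p under 0.05 by limma, PLK1 (log2 fold change -0.76) and AURKA (-0.66), both mitotic kinases, against 0.86% of all genes tested. Both calls were lost with any 1 library left out. The median log2 fold change of the 12 was -0.40, with 11 below 0. The part of cell division in the tubulin values was not tested.

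The libraries were also checked as a whole. Neuron markers other than TUBB3 were mostly absent, with 1 of 5 (SNAP25, 2.60 to 4.19 FPKM) above a mean of 1 FPKM, and none of 4 immune or 4 endothelial markers was. Of 7 glial and neural stem cell markers 6 were above it and GFAP was not, and FABP7 and S100B were higher in UM-164 by limma. OLIG2 was at 0.97, NES at -0.44, VIM at -0.53 and SOX2 at -0.21 on the log2 scale, with limma adjusted p-values of 0.0992, 0.0941, 0.174 and 0.370. The FABP7 call ended without either vehicle library (limma adjusted p 0.0998 and 0.111) and the S100B call without any 1 library (0.0791 to 0.121). A list of ribosomal, 7SL and related non-coding RNAs made up 3.73% and 3.37% of all FPKM in vehicle. It made up 9.99% and 11.5% in UM-164, while the protein-coding sum had a ratio of 1.02. Nearly all of that share came from FP236383 and FP671120, listed here with ribosomal RNAs but deposited as long non-coding RNAs. They made up 3.30% and 2.88% in vehicle and 9.01% and 10.3% in UM-164. MT-RNR1 and MT-RNR2, the ribosomal RNAs of mitochondria, made up 0.417% and 0.482% in vehicle and 0.922% and 1.06% in UM-164. The 7SL and 7SK RNAs made up 0.00941% and 0.00999% in vehicle and 0.0549% and 0.0574% in UM-164. The part of this shift in library make-up in the tubulin values was examined only by rescaling. The 10 tubulin genes were 1.30% and 1.27% of the protein-coding FPKM in vehicle and 0.889% and 0.863% in UM-164. With protein-coding genes rescaled to one sum, 3 tubulin genes were lower by limma, TUBA1C, TUBB (adjusted p 0.0303) and TUBB4B (adjusted p 0.0428), and TUBA1A was higher. Quantile normalization gave 4 lower, adding TUBA1B (log2 fold change -0.88, limma adjusted p 0.0315), and 1 higher. Median-ratio scaling gave 0 lower and 1 higher, with TUBA1C at a log2 fold change of -0.75 (limma adjusted p 0.0523). Of all 11516 genes tested, 133 were lower and 56 higher with protein-coding genes rescaled. The counts were 115 and 56 with quantile normalization and 90 and 51 with median-ratio scaling, against 99 and 52 with no rescaling.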

How the data were processed

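Total RNA of LN229 cells given vehicle or 100 nM UM-164 was sequenced in 2 libraries per group. Trimming with cutadapt 1.9 and FastQC on build GRCh38 are credited to the submitters' processing notes, alignment with HISAT2 to the series text, and the authors' group comparison to DESeq2. The authors deposited FPKM for 27694 genes (program not given in the sources used here). In such values a larger share of some RNAs can lower all others. The mean summed FPKM of all genes was 287198 in vehicle and 317427 in UM-164, and that of protein-coding genes was 258162 and 262067. Their fold change, p-value and q-value columns were not used.

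Genes with a mean of at least 1 FPKM were compared as log2(FPKM + 0.5) with limma 3.58.1 in R 4.3.3, with a variance trend and Benjamini-Hochberg adjustment at 0.05. The code was first run on values simulated from limma's own variance model, with log2 changes of at least 1 in size. That run cannot show how the test treats smaller changes, shared reads or shifts in library make-up. Depth could not be counted: the best-fitting steps of low values varied up to 1.11 times among the libraries. Whole reads could not be recovered, since only 33.2% to 35.7% of low values fell within 0.05 of a whole step. Each step was the best of a search, so the 10% that a step fixed in advance gives by chance is too low a reference. All 10 tubulin genes are named, and of other lists the called genes and up to 4 with the smallest p; other tubulin genes and pseudogenes are named from a mean of 1 FPKM, and those below it only to say so. The overlapping genes were named after their values were seen. Members and lists were chosen with earlier results of these data known. Sequences came from GENCODE v29 with Biopython 1.88. A further coding stretch is not reported here. Alternatives were other pseudocounts, filters, scalings and variance models, each library left out and a replicate block. Python 3.11.15, numpy 2.4.6, pandas 2.3.3 and scipy 1.17.1 were used.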

Additional observations from a re-analysis of the deposited data

How the results depend on the processing

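Under 13 alternatives, 127 of 129 fold changes of tubulin genes kept their direction. The exceptions were both of TUBA4A, at 0.26 without vehicle replicate 2 and 0.02 without UM-164 replicate 1 (leaving out libraries gave -0.31 to 0.26). Much of this count was fixed in advance. The filters, the variance model and the replicate block leave a fold change as it is. Leaving out 1 library cannot turn the direction of a gene whose groups do not overlap. Of the other named genes, TUBD1, CNOT1 and TUBA3FP were above 0 without vehicle replicate 2 (0.10, 0.11 and 0.11), as was TUBA3FP without UM-164 replicate 1, with ranges of -0.16 to 0.10, -0.21 to 0.11 and -0.30 to 0.21 over the libraries left out. The count of tubulin genes lower was 0 with no filter, with median-ratio scaling and with no variance trend, 2 at a mean of at least 5 FPKM, 4 with quantile normalization and 3 with protein-coding genes rescaled, and 0 to 0 with 1 library left out. The count higher was 0 with no filter and with no variance trend, and 0 to 1 with 1 library left out. For the other microtubule genes the count lower was 0 with no filter, quantile normalization or no variance trend, 3 at a mean of at least 5 FPKM, 2 with protein-coding genes rescaled and 0 to 0 with 1 library left out; the count higher was 1 at a mean of at least 5 FPKM. Over all genes tested, 99 were lower and 52 higher, against 1 and 3 with no filter, 28 and 22 with no variance trend, 158 and 66 at a mean of at least 5 FPKM, 0 and 4 without vehicle replicate 1, 0 and 6 without vehicle replicate 2, 70 and 45 without UM-164 replicate 1 and 53 and 31 without UM-164 replicate 2. The log2 ratio of class sums ranged from -0.56 to -0.42 (alpha) and from -0.62 to -0.50 (beta) with 1 library left out, and such fits take the spread of the remaining library from the other group. TUBA1A was called in 8 of 13 alternatives (limma adjusted p 0.0168 to 0.153), TUBA1C in 6 (0.0187 to 0.183), TUBB in 3 (0.0164 to 0.254), TUBB4B in 2 (0.0347 to 0.244) and TUBA1B in 1, quantile normalization (0.0315 to 0.307).

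With the replicate number as a replicate block, 1 tubulin gene was lower and 1 higher, and 1 mitotic marker was lower in place of 2. The numbers are not stated to mark shared cultures. Replicate differences of the groups correlated at -0.06 across genes, a value that cannot show whether same-numbered libraries shared a culture or a day. The values hold no read counts, so counting error is unknown, and 2 libraries per group limit every interval. The cause of each change with a setting was not tested.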
